A study of Mus musculus with 14 samples.

Results

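Transcripts of 10 T helper effector cytokines were followed in intestinal regulatory T cells (Tregs) that carried or lacked the transcription factor JunB. The genes were Il4, Il5, Il13, Il17a, Il17f, Il22, Ifng, Il2, Il21 and Csf2, and they were taken by name, through the Ensembl ID of each symbol, from the 55724 gene IDs listed in the count tables. Each of the 10 was listed in both tables, and their values were read in all 14 RNA-seq libraries.

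The libraries came from adult mice of 2 lines with a floxed Junb. In the first line, Foxp3YFPcre drives deletion from the onset of Foxp3 expression, and Tregs positive for CD4 and Foxp3(YFP) were sorted through a narrower surface gate from the Peyer's patches (PP) of untreated males that were JunB F/+ (HET, n = 2) or JunB F/F (KO, n = 2). In the second line, Foxp3ERT2cre acts only after tamoxifen and a Rosa26-tdTomato allele marks the cells in which Cre was active. JunB F/+ (iHET) and JunB F/F (iKO) mice of this line received 3 oral doses of 8 mg tamoxifen, on days 0, 1 and 3, and Tregs positive for TCRb, CD4, Foxp3(EGFP) and tdTomato were sorted on day 7 from the colon lamina propria (n = 3 and 3) and, with a further gate on CD25- cells, from PP (n = 2 and 2). Replicate 1 of each inducible group was male, and replicates 2 and 3 were female and carried 2 copies of Foxp3ERT2cre. All control mice carried the same Cre as the knockouts and 1 floxed Junb allele. The study's methods describe promiscuous germline deletion of Junb in Foxp3YFPcre mice, which its breeding scheme was meant to limit, and they give 3 animals per group for the colon, housed as 1 iHET and 1 iKO animal in a cage. For PP, nothing in the labels says whether a library came from 1 mouse or from several, so p-values there measure only the spread between libraries.

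Each library held between 26274861 and 35508709 counts of reads on genes, and a floor of 3 counts lay between 0.0845 and 0.114 CPM in them, where CPM is the count scaled to a common library total and normalised for composition with edgeR's TMM. Such floors cover counting error only, because the reads carry no molecular identifiers. Junb was at 4180 to 8470 CPM in the 7 control libraries and at 561 to 1030 CPM in the 7 knockout libraries. Foxp3 was present at 59.7 to 155 CPM in every library. In bulk RNA, fewer cells that express a cytokine and less of its RNA per cell cannot be told apart.

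Effector cytokines are the secreted products by which CD4+ T helper subsets are told apart. IL-4, IL-5 and IL-13 are the cytokines of type 2 responses and sit in one cluster of genes, IL-17A, IL-17F and IL-22 are those of type 17 responses at mucosal barriers, and IFNγ, encoded by Ifng, is that of type 1 responses. IL-2 is the growth factor that conventional T cells make and Tregs mostly consume, IL-21 is made by follicular helper cells and acts on B cells of germinal centres, and GM-CSF, encoded by Csf2, acts on myeloid cells. Tregs are known for holding most of these genes in check, and JunB, an AP-1 family protein that pairs with BATF, takes part in the induction of several of them in conventional T cells.

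The genes lie in 4 neighbourhoods of the GRCm38 genome. Il4 (ENSMUSG00000000869.12), Il13 (ENSMUSG00000020383.1), Il5 (ENSMUSG00000036117.2) and Csf2 (ENSMUSG00000018916.5) are on chromosome 11, where 12654 bases separate Il4 from Il13. Il17a (ENSMUSG00000025929.4) and Il17f (ENSMUSG00000041872.9) are 42649 bases apart on chromosome 1. Il22 (ENSMUSG00000074695.3) and Ifng (ENSMUSG00000055170.4) are on chromosome 10, and Il2 (ENSMUSG00000027720.7) and Il21 (ENSMUSG00000027718.8) are 96799 bases apart on chromosome 3. Reads of these genes were counted without regard to strand, and parts of the exons of 4 of them overlap other annotated genes, namely 417 of 1537 exon bases of Il5 with Gm12214, 336 of 1295 of Ifng with Gm49751, 469 of 5259 of Il21 with Gm12534 and 96 of 800 of Csf2 with Gm12223. Il22 has a near-identical copy, Iltifb, which was at 1 to 29 counts. Reads that match both were left out with the other reads of several matches. The level of Il22 and its share in the sums below may therefore be too low, by an amount that is not known.

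The 250 bases before the start of 4 of the genes are shown here because JunB is a DNA-binding protein of the AP-1 family. Il21 and Il4 differed between KO and HET libraries. Il17a and Il17f lay lower in each iKO than in each iHET library of the colon, where neither was called. Of all genes tested there, 8.35% did not overlap between genotypes. Ifng and Csf2 lay higher in each iKO library of the colon and are not shown. The 4 genes were chosen after their values were seen. Sequences are from RefSeq on GRCm38.p6, at chr3:37232637-37232886 (minus strand), chr11:53618666-53618915 (minus strand), chr1:20730655-20730904 (plus strand) and chr1:20784271-20784520 (minus strand), and are written on the strand of the gene. Capitals mark matches on either strand to the AP-1 letters TGANTCA, a motif that reads the same on both strands, and to the core letters bound by NFAT, TGGAAA, which are TTTCCA where they lie on the other strand.
Il21: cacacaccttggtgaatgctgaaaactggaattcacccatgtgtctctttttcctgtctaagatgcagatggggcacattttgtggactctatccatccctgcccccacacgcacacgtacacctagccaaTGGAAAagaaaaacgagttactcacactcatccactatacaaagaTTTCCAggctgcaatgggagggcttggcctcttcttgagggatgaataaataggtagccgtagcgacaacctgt
Il4: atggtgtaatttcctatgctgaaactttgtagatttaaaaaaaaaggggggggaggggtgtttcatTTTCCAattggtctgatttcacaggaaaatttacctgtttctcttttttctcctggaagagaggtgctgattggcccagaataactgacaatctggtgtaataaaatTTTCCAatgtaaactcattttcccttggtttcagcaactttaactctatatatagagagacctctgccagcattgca
Il17a: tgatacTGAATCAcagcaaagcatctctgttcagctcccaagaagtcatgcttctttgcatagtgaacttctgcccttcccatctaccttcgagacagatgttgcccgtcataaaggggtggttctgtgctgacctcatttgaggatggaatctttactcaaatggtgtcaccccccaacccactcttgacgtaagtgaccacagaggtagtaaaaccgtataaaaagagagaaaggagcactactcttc
Il17f: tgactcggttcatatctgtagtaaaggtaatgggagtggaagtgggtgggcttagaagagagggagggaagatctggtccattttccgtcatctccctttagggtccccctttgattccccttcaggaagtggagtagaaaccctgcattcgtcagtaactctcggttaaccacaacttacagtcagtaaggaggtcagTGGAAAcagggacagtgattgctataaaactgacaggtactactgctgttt
Among the 10 genes, each taken at its most upstream RefSeq start, 1 window held TGANTCA, that of Il17a at 244 to 238 bases before the start, and 8 windows held TGGAAA. Of the 32851 promoter windows of the same length in the table, 6.75% held TGANTCA and 18.6% held TGGAAA. The window of Ifng held neither motif, and that of Csf2 held 1 match to the NFAT letters and none to those of AP-1. These matches describe letters only, and distal elements were not examined.

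The order of the 10 genes by level was not that of PP in the colon. Per kilobase of exon, Il4 was the highest of the 10 in all 4 groups of PP Tregs, at 18.8 ± 1.01 CPM per kb in HET (SD, n = 2), 29.4 ± 1.39 in KO, 28.6 ± 1.99 in iHET and 39.7 ± 15.3 in iKO libraries. Its lowest PP library stood above the highest library of the next gene, Ifng, in each of these groups. In colonic iHET Tregs the order was Il17a at 15.4 ± 1.88 CPM per kb (n = 3), Ifng at 11.6 ± 1.86, Il17f at 9.50 ± 1.20 and Il4 at 8.21 ± 3.37, and the ranges of neighbours in this order overlapped. In colonic iKO Tregs it was Ifng at 19.9 ± 2.93 CPM per kb, Il4 at 13.5 ± 4.60, Csf2 at 10.2 ± 0.513, Il17a at 8.26 ± 1.57 and Il17f at 5.43 ± 2.08, and the ranges of Csf2 and Il17a did not overlap. At the other end, Il5 had 0 counts in all 4 libraries of the Foxp3YFPcre line, which allows up to 0.110 CPM, and Il2 stayed between 0.258 and 1.81 CPM in the 14 libraries.

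**Figure D1:**
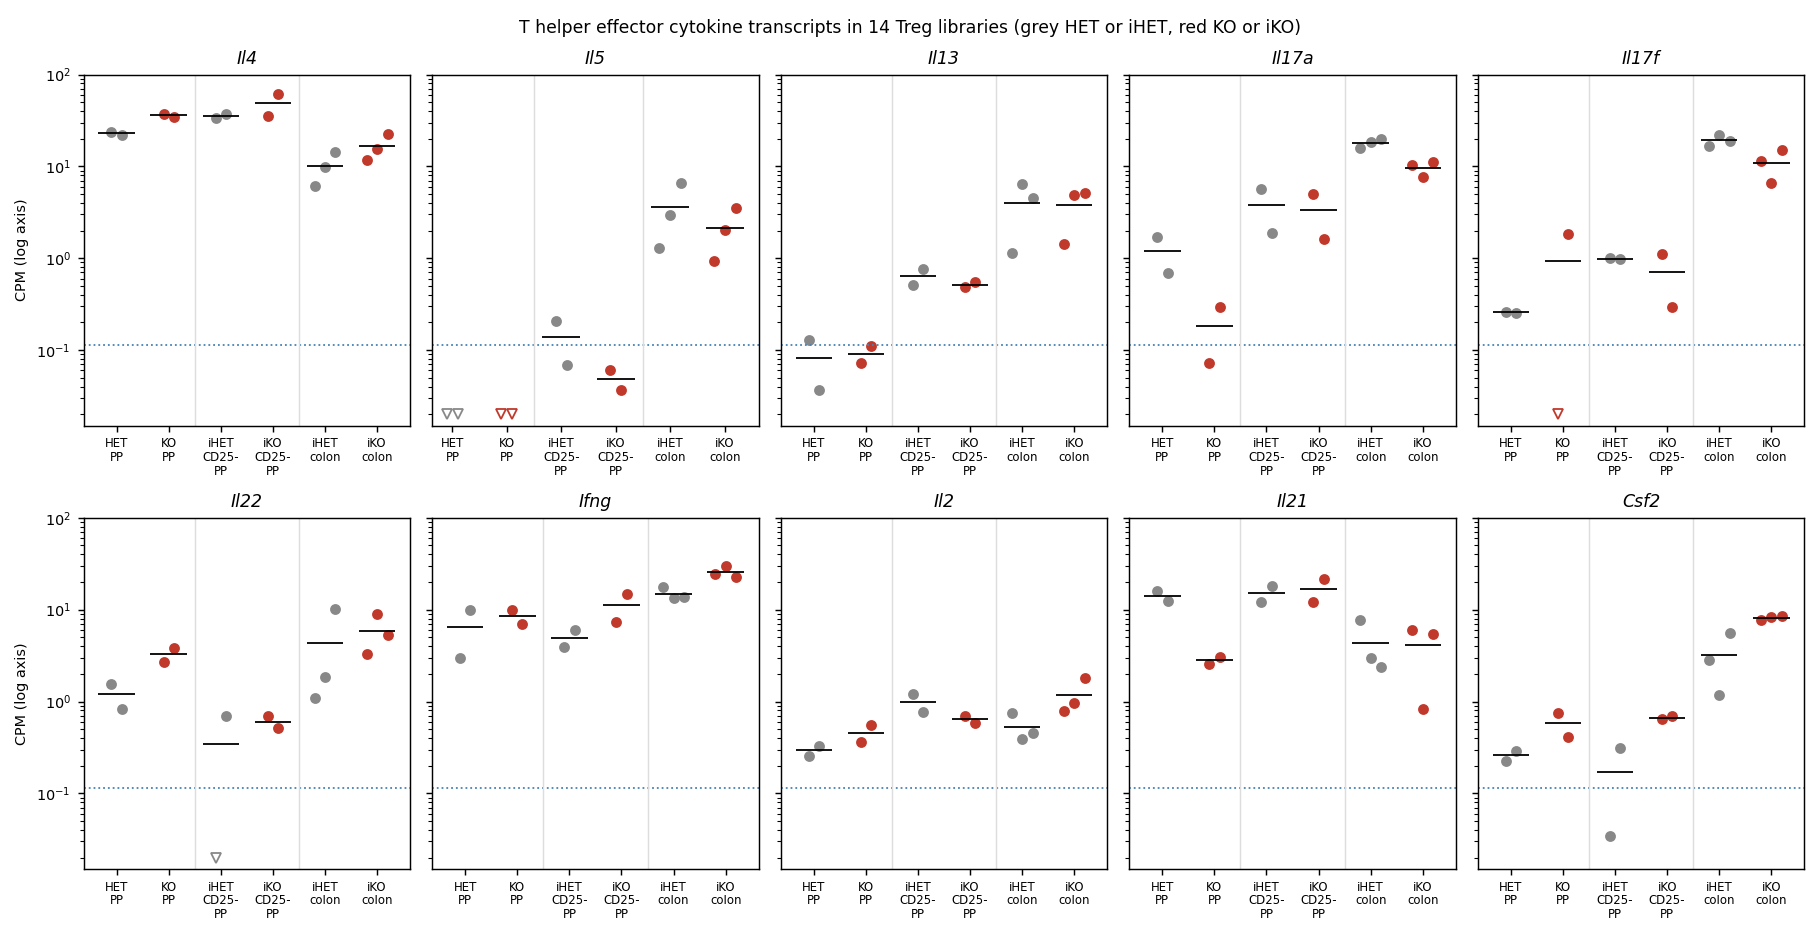
Expression of the 10 cytokine genes in each of the 14 libraries, in CPM on a log axis, for HET and KO PP Tregs, iHET and iKO CD25- PP Tregs and iHET and iKO colonic Tregs. Points are libraries, black bars are group means, open triangles are libraries at 0 counts and the dotted line is the highest floor of 3 counts, 0.114 CPM. Il5, Il13, Il17a, Il17f and Csf2 lie higher in every colonic than in every PP library, and Il21 is lower in the KO libraries than in the other PP libraries.

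The make-up of the summed signal per kb differed in the same way. Il4 made up 59.6% to 72.3% of the sum over the 10 genes in each of the 8 PP libraries and 10.2% to 23.9% in each of the 6 colonic libraries. Il17a, Il17f and Il22 together made up 46.5% to 50.1% of it in colonic iHET and 25.2% to 29.6% in colonic iKO libraries, while Csf2 made up 2.61% to 9.34% and 13.7% to 16.3%. The genes were put together in this way after their values were seen, and the shares are given without a test. The sum itself was 48.8 to 73.8 CPM per kb in colonic iHET and 59.2 to 77.4 CPM per kb in colonic iKO libraries, which overlap.

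**Figure D2:**
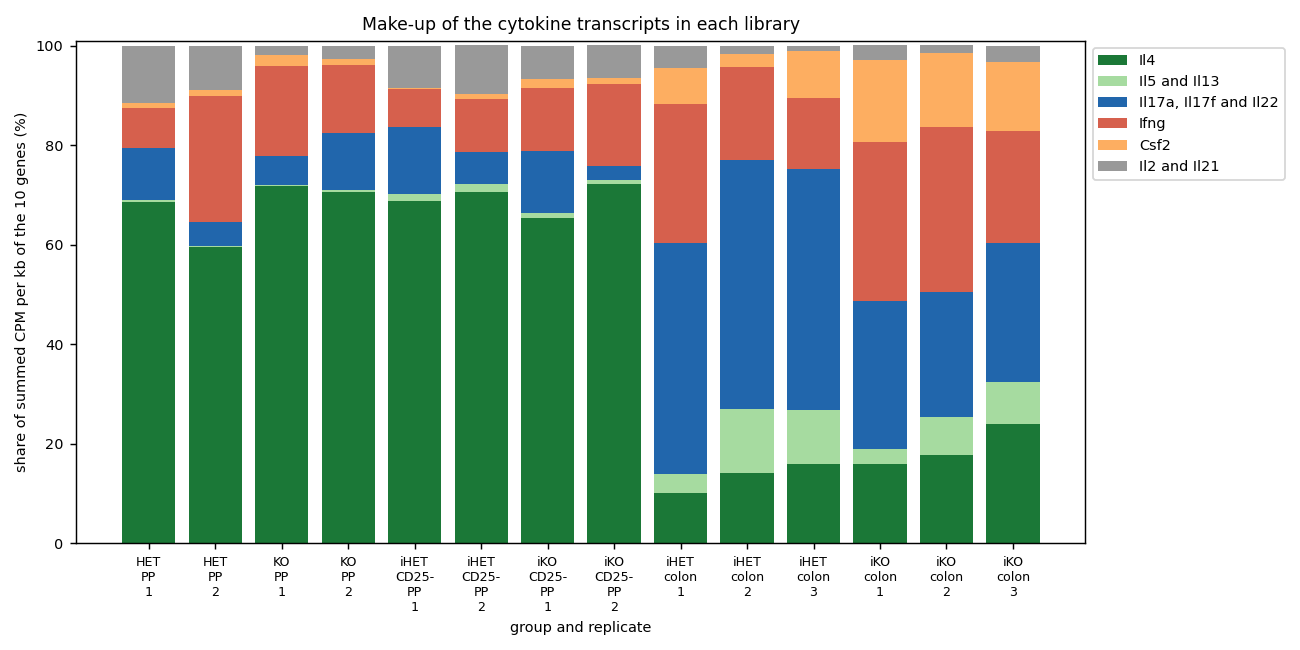
Share of each cytokine or group of cytokines in the summed CPM per kb of the 10 genes, in percent, with 1 stacked bar for each of the 14 libraries. Il4 fills 59.6% or more of each PP bar, and the part of Il17a, Il17f and Il22 is 46.5% or more in colonic iHET bars and 29.6% or less in colonic iKO bars.

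The first comparison asked what loss of JunB from the onset of Foxp3 expression changes in PP Tregs. Il21 was lower and Il4 higher in KO than in HET Tregs, and Il22 and Ifng, the other 2 members that passed the filter, did not pass the test. A gene was tested where 2 or more libraries held 1 CPM or more of it, and 4 of the 10 members passed this filter. Of these, 1 was called higher and 1 lower with edgeR's quasi-likelihood test at a false discovery rate (FDR, the Benjamini-Hochberg adjusted p) of 0.05, where 3.35% of the 12224 genes tested were called (0.99% higher and 2.36% lower). Il4, Il21 and Il22, 3 of the 4, did not overlap between genotypes, against 43.6% of the genes tested.

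The HET libraries held 15.9 and 12.4 CPM of Il21 and the KO libraries 2.58 and 3.08 CPM. Both KO libraries lay below both HET libraries, and the ratio of the means was 0.20. The log2 fold change was -2.31 (SE 0.246, FDR = 0.00449 in edgeR). Leaving out the first HET library took its adjusted p from edgeR to 0.0613, with a log2 fold change of -2.11, while it was 0.0170 or less without any other single library.

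For Il4 these values were 23.9 and 22.1 CPM (HET) and 37.3 and 34.9 CPM (KO), again without overlap but in the other direction. Its log2 fold change was 0.65 (SE 0.113, FDR = 0.0235 in edgeR). Leaving out any 1 of the 4 libraries lost the call, with edgeR adjusted p from 0.0647 to 0.165 and log2 fold changes from 0.60 to 0.71. The other type 2 cytokines were hardly detected, with 0 counts of Il5 in each library and 1 to 4 counts of Il13.

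Il22 had 1.55 and 0.838 CPM with 1 intact allele of Junb and 2.69 and 3.86 CPM without, with both KO libraries the higher, and its log2 fold change was 1.42 (SE 0.441, FDR = 0.156 in edgeR). Without the filter on low counts it was called (adjusted p = 0.0224 in edgeR). Il17a, which failed the filter, had 53 and 19 counts in HET and 2 and 8 counts in KO libraries, and without the filter its log2 fold change was -2.50 (SE 0.731, FDR = 0.00722 in edgeR). Il17f had 8 and 7 counts in HET libraries, and 0 and 50 counts in KO libraries, so that 1 KO library held nearly all of its reads. The 3 type 17 cytokines therefore did not share a direction among these libraries.

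Ifng values of 2.97 and 9.94 CPM (HET) faced 9.94 and 7.05 CPM (KO), which overlap, with a log2 fold change of 0.40 (SE 0.489, FDR = 0.827 in edgeR). Il2 had 8 and 9 counts in HET and 10 and 15 counts in KO libraries, and Csf2 had 7 and 8 against 21 and 11 counts. Both were under the filter and were not called without it (FDR = 0.839 for each in edgeR).

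Genes of follicular T cells were lower beside Il21 in this comparison. All 9 of the follicular list were tested and all 9 had a log2 fold change below 0. Of them 8 were called lower in KO Tregs and none higher. The median log2 fold change was -0.84 beside 0.00298 over all genes tested. The counts of called genes in this paragraph stand beside 2.36% of all genes tested called lower and 0.99% higher. Sostdc1 (-4.95), Tox2 (-0.93), Bcl6 (-0.84), which encodes the repressor that directs follicular differentiation, and Pdcd1 (-0.91) had the lowest p-values among them. The level of intestinal epithelial transcripts differed as well. Their 8 genes summed to 139 to 172 CPM in HET and to 63.4 to 72.7 CPM in KO libraries, and 6 of the 8 were called lower. B cell and plasma cell transcripts summed to 2090 to 2410 CPM in HET and 1800 to 2170 CPM in KO libraries, with 1 of 8 called lower (Sdc1). Of 7 tested genes of NK cells, innate lymphoid cells and CD8 or gamma-delta T cells, 2 were called lower, Kit (-2.74) and Klrb1c (-1.74), and the 10 genes of that list summed to 81.0 to 88.5 CPM in HET and 54.2 to 64.0 CPM in KO libraries. The part of these other cells in the cytokine values was not tested.

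The second comparison asked what short-term loss of JunB changes in CD25- PP Tregs. None of the 5 members that passed the filter was called, and no gene at all was called among 17079 tested (0%), although 3.62% of them and 1 of the 5 members, Ifng, had an unadjusted p under 0.05 in edgeR. DESeq2's Wald test called 35 genes and edgeR's exact test 43, none of them a member.

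Ifng was at 3.95 and 5.95 CPM in iHET and at 7.36 and 14.9 CPM in iKO libraries. The iKO libraries lay above the iHET libraries, as was so in either direction for 32.1% of the genes tested, and the log2 fold change was 1.16 (SE 0.404, edgeR adjusted p = 0.999). Without the filter it was called (FDR = 0.0315 in edgeR), and over the other alternatives and without single libraries it was not.

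Il4 was at 33.4 and 36.8 CPM in iHET and at 35.5 and 62.0 CPM in iKO libraries, which overlap, and its log2 fold change was 0.46 (SE 0.268, FDR = 0.999 in edgeR). Il21 was at 12.2 and 18.3 CPM in iHET and 12.0 and 21.4 CPM in iKO libraries, with a log2 fold change of 0.12 (SE 0.333, FDR = 0.999 in edgeR). Thus Il21 lay at similar levels in all 4 of these libraries and in the 2 HET libraries of the other line, and only the 2 KO libraries of the Foxp3YFPcre line were below 12.0 CPM among PP Tregs. Levels in the 2 lines were scaled separately, and the difference between lines was not tested.

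Il17a varied more between the libraries of a group than between groups, at 5.71 and 1.90 CPM in iHET and 5.05 and 1.60 CPM in iKO libraries. In each genotype replicate 1, the male one, was the higher. Il17f was at 0.997 and 0.969 CPM in iHET and 1.12 and 0.291 CPM in iKO libraries. The log2 fold changes were -0.19 for Il17a and -0.45 for Il17f (SEs 0.695 and 0.771), and both turned positive when the second iKO library was left out, at 0.41 and 0.20, as did that of Il17a without the first iHET library, at 0.80.

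The other 5 members were under the filter and are given as counts. Il22 had 0 and 20 counts in iHET and 23 and 14 counts in iKO libraries, and Il13 had 15 to 22 counts in all 4. Il5 had 6 and 2 counts in iHET and 2 and 1 in iKO libraries, so that 3 of the 4 were under the floor of 3 counts. Csf2 had 1 and 9 counts in iHET and 21 and 19 counts in iKO libraries, and Il2 had 35 and 22 against 23 and 16 counts. None of these 5 was called without the filter (edgeR adjusted p from 0.953 to 0.998).

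The third comparison asked the same of colonic Tregs, where most of the 10 genes were better expressed and 9 of them passed the filter of 1 CPM in at least 3 libraries. None was called with edgeR, where 1 of 16313 genes was (0.00613%), so what follows are values that did not pass the FDR threshold. Il17a and Il17f lay lower in every iKO than in every iHET library, and Ifng and Csf2 lay higher. These 4 of the 9 tested members did not overlap between genotypes, against 8.35% of all genes tested, and 5 of the 9 had an unadjusted p under 0.05 in edgeR, against 3.87% of all genes tested. DESeq2's Wald test and the likelihood ratio test with cage called 50 and 25 genes, none of them a member.

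Il17a was at 15.7, 18.4 and 20.1 CPM in iHET and at 10.3, 7.59 and 11.1 CPM in iKO libraries, with a log2 fold change of -0.92 ± 0.209 (SE, edgeR adjusted p = 0.947). Il17f was at 16.8, 21.7 and 19.1 CPM in iHET and at 11.5, 6.53 and 14.9 CPM in iKO libraries, with a log2 fold change of -0.87 ± 0.310 (SE, edgeR adjusted p = 0.947). Over the alternatives and without single libraries the adjusted p of Il17a ran from 0.0997, in DESeq2's Wald test, to 1, and its log2 fold change from -1.07 to -0.72. Without single libraries that of Il17f ran from -1.13 to -0.44, nearest to 0 without the second iKO library, and was -0.46 without the second iHET library. The pair kept close proportions in each library, with 1.29 to 2.01 times as much Il17a as Il17f per kb.

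Il22, the other type 17 cytokine, did not go with them. It was at 1.10, 1.83 and 10.2 CPM in iHET and at 3.31, 8.87 and 5.36 CPM in iKO libraries, and the third iHET library, the highest of all, set the overlap. Its log2 fold change was 0.98 (SE 0.703, FDR = 0.947 in edgeR) and ran from 0.26 to 1.93 when single libraries were left out.

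Ifng was at 17.8, 13.5 and 13.6 CPM in iHET and at 24.6, 30.0 and 22.7 CPM in iKO libraries, with a log2 fold change of 0.78 ± 0.192 (SE, edgeR adjusted p = 0.947). Csf2 was at 2.84, 1.17 and 5.51 CPM in iHET and at 7.72, 8.41 and 8.44 CPM in iKO libraries, with a log2 fold change of 1.59 ± 0.483 (SE, edgeR adjusted p = 0.947). The iKO libraries of Csf2 were close together, while the iHET libraries spread over a wide range. Without single libraries the log2 fold change of Csf2 ran from 1.00 to 2.10, with the lowest values, 1.00 and 1.03, without the second iHET and the second iKO library. That of Ifng ran from 0.59 to 0.94. Per kb, Ifng was 0.610 to 1.02 times Il17a in the iHET libraries and 1.85 to 3.58 times Il17a in the iKO libraries, a ratio chosen after the values were seen and not tested.

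Il4 was at 6.11, 9.74 and 14.4 CPM in iHET and at 11.6, 15.3 and 22.7 CPM in iKO libraries. The groups overlap. With the replicate number taken as cage, which the labels do not state, the log2 fold change was 0.74 (SE 0.184, edgeR adjusted p = 0.947). Each iKO library was above the iHET library of the same number. Il5 was at 1.28, 2.94 and 6.56 CPM in iHET and at 0.937, 2.05 and 3.49 CPM in iKO libraries (log2 fold change -0.63, SE 0.315, edgeR FDR = 0.947), and each iKO library was below the iHET library of the same number, the other way round than for Il4. Il13 was at 1.14, 6.35 and 4.49 CPM in iHET and at 1.44, 4.85 and 5.14 CPM in iKO libraries (log2 fold change 0.03, SE 0.298, edgeR FDR = 0.997). The 3 type 2 cytokines all had their lowest value of each genotype in replicate 1, the male one, and an effect of sex was not tested.

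Il21 was at 7.71, 2.97 and 2.36 CPM in iHET and at 5.94, 0.825 and 5.46 CPM in iKO libraries, with a log2 fold change of -0.31 (SE 0.615, FDR = 0.973 in edgeR) that ran from -1.03 to 0.41 when single libraries were left out. Il2 had 21, 13 and 14 counts in iHET and 25, 29 and 57 counts in iKO libraries, was under the filter and was not called without it (FDR = 1 in edgeR).

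Neither transcripts of other cells nor the regulators of these cytokines were called between colonic iKO and iHET Tregs. Epithelial transcripts ranged from 235 to 758 CPM in iHET and from 148 to 1340 CPM in iKO libraries, and the 10 genes of NK cells, innate lymphoid cells and CD8 or gamma-delta T cells from 103 to 232 CPM and from 132 to 256 CPM, with Ncr1, which marks NK cells, at 0 to 4 counts. That sum was mostly Kit, at 75.3 CPM or more in each library. Within the list, 6 of the 7 genes tested had a log2 fold change above 0, with a median of 0.34, and Tcrg-C1 (5.01 to 6.33 CPM in iHET, 6.76 to 14.8 CPM in iKO) and Tcrg-C2 (5.27 to 8.31 CPM and 10.8 to 14.8 CPM), constant regions of the gamma T cell receptor, lay higher in every iKO than in every iHET library, as Ifng and Csf2 did. Their part in the values of Ifng and Csf2 was not tested. None of 18 T helper lineage transcription factors was called, with a median log2 fold change of -0.26 beside 0.00479 over all genes tested, and none of 20 receptors for polarising signals, with a median of -0.14. Il23r, whose product receives the IL-23 signal that sustains type 17 cells, was at 13.3 to 22.2 CPM in iHET and 8.94 to 11.0 CPM in iKO libraries (edgeR adjusted p = 0.947), and was named after its value was seen. Of these 20 receptors, 5 lay lower in every iKO than in every iHET library and 1, Il27ra, lay higher. Over the 16313 genes tested, 732 lay lower in this way and 630 higher. The lower receptors were Il23r, Il12rb2 (4.23 to 8.67 CPM in iHET, 0.762 to 3.4 CPM in iKO), Il12rb1 (204 to 244 CPM and 124 to 160 CPM), Icos (841 to 902 CPM and 672 to 693 CPM) and Il21r (566 to 663 CPM and 349 to 565 CPM). They too were named after their values were seen.

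**Figure D3:**
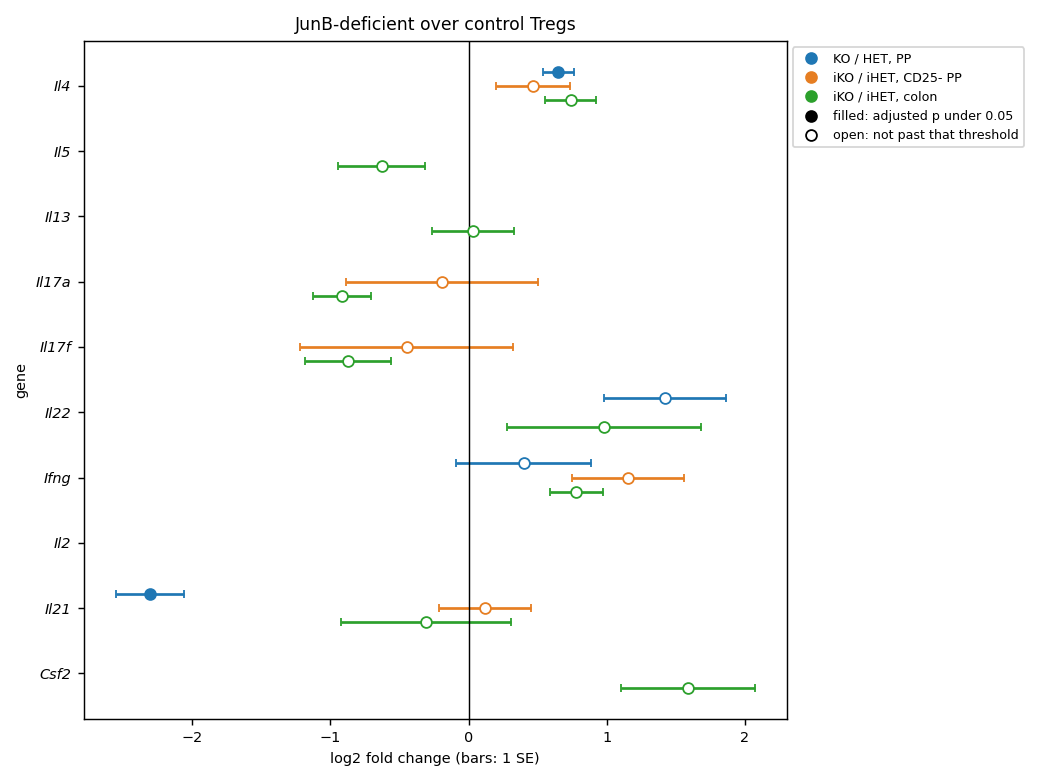
Log2 fold change of each cytokine gene in JunB-deficient over control Tregs, with bars of 1 standard error, for KO over HET PP Tregs, iKO over iHET CD25- PP Tregs and iKO over iHET colonic Tregs. Filled points passed an adjusted p of 0.05, and members under the filter have no point. Only Il4 (0.65) and Il21 (-2.31) of KO PP Tregs are filled, and the colonic values of Il17a (-0.92) and Il17f (-0.87) lie left of 0 while those of Ifng (0.78) and Csf2 (1.59) lie right of it.

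A difference of the genotype effect between colonic and CD25- PP Tregs was tested as an interaction in a fit of the 10 inducible libraries. None of the 10 members was called or had an unadjusted p under 0.05 in edgeR, and none was called of the 18626 genes tested (0%, with 3.34% at an unadjusted p under 0.05 in edgeR and 2 genes called by DESeq2's Wald test). The estimates for the members ran from -0.71 for Il17a to 1.70 for Il2 on the log2 scale (SEs 0.710 and 0.868, adjusted p = 1 in edgeR for all 10).

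The last comparisons set colonic beside CD25- PP Tregs within each genotype of the inducible line, where all 10 members passed the filter. The organ and the gate on CD25 change together here and cannot be told apart. In iHET Tregs, Il5, Il17f, Csf2, Il17a and Ifng were higher in the colon and Il4 was lower. Of the 10 members 5 were called higher, against 4.22% of the 18626 genes tested, and 1 lower, against 2.23% (6.45% in either direction), in edgeR's quasi-likelihood test. All 10 had groups that did not overlap, as did 38.7% of the genes tested. Il5, Il13, Il22 and Csf2 reached 1 CPM in colonic libraries alone and so passed the filter through the group where they are high, and for this reason the counts of members are a description in both genotypes and are not weighed against these shares.

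Among the called members, Il5, Il17f and Csf2 had the largest fold changes. Il5 was at 1.28, 2.94 and 6.56 CPM in the colon and at 0.206 and 0.0692 CPM in PP, with a log2 fold change of 4.41 (SE 0.965, FDR = 0.0220 in edgeR), and 1 of its PP libraries was under the floor of 3 counts. Il17f was at 16.8 to 21.7 CPM in the colon and at 0.969 to 0.997 CPM in PP, with a log2 fold change of 4.24 (SE 0.548, FDR = 0.00312 in edgeR). Csf2 was at 1.17 to 5.51 CPM in the colon and at 0.0344 and 0.311 CPM in PP, with a log2 fold change of 3.96 (SE 0.833, FDR = 0.0190 in edgeR). The first of these PP libraries held 1 count of Csf2, and with the replicate number as a block the adjusted p of Csf2 was 0.0504. Without single libraries its log2 fold change ran from 3.24 to 5.58, and that of Il22 from 2.00 to 7.08.

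Il17a, at 15.7 to 20.1 CPM in the colon and 1.90 to 5.71 CPM in PP, had a smaller log2 fold change of 2.24 (SE 0.542, FDR = 0.0386 in edgeR). Ifng had one of 1.59 (SE 0.328, FDR = 0.0221 in edgeR). Il4 fell by 1.80 on the log2 scale, from 33.4 and 36.8 CPM in PP to 6.11 to 14.4 CPM in the colon (SE 0.378, FDR = 0.0242 in edgeR). Il13, Il22, Il21 and Il2 did not pass the threshold, with log2 fold changes of 2.59, 3.55, -1.81 and -0.85 and edgeR adjusted p of 0.0777, 0.131, 0.168 and 0.433. Without the filter on low counts Il13, Il22 and Il21 were called (FDR = 0.000214, 2.39e-08 and 4.37e-06 in edgeR), and Il2 was not (FDR = 0.683 in edgeR). Leaving out the second iHET library of PP left none of the 10 called, with adjusted p in edgeR of 0.0547 for Il17f and 0.286 for Il17a, although the log2 fold change of Il17f stayed between 4.14 and 4.32 without single libraries, and leaving out the first left 2, Il17a and Il17f. The call of Il17a was lost without 6 of the 10 libraries in turn (log2 fold changes from 1.66 to 3.25 over the 10), namely the second and the third iHET and all 3 iKO libraries of the colon and the second iHET library of PP, and that of Il4 also without the second iHET library of the colon.

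Among iKO Tregs, Il5, Il17f and Csf2 were higher in the colon and Il4 lower. Here 3 members were called higher, against 2.48% of the genes tested, and 1 lower, against 1.59% (4.07% in either direction). The groups of all 10 members again did not overlap, 8 lying above and 2 below, as was so for 43.9% of the genes tested. The log2 fold changes were 4.74 for Il5, 3.87 for Il17f, 3.56 for Csf2 and -1.56 for Il4 (SEs 1.08, 0.545, 0.750 and 0.375, edgeR FDR = 0.0272, 0.00686, 0.0310 and 0.0498). Both iKO libraries of PP were under the floor of 3 counts of Il5, at 2 and 1 counts, so its fold depends on the prior count and was 5.34 on the log2 scale with a smaller prior count. Il17a and Ifng, called in iHET Tregs, had log2 fold changes of 1.53 and 1.21 here (SEs 0.527 and 0.318, edgeR FDR = 0.132 and 0.0656), and the difference between genotypes is the interaction given above, which was not called. Il17f alone was called without any single library of the 10, and Il4 was called without 2 of them, the first and the third iHET library of the colon. Il5 was called without 6 of the 10 and Csf2 without 5. With the replicate number as a block, the adjusted p of Csf2 in edgeR was 0.0622. Leaving out either iKO library of PP, or the second or the third iKO library of the colon, left 1 member called in each case, Il17f, and leaving out the first of the colon left 2.

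**Figure D4:**
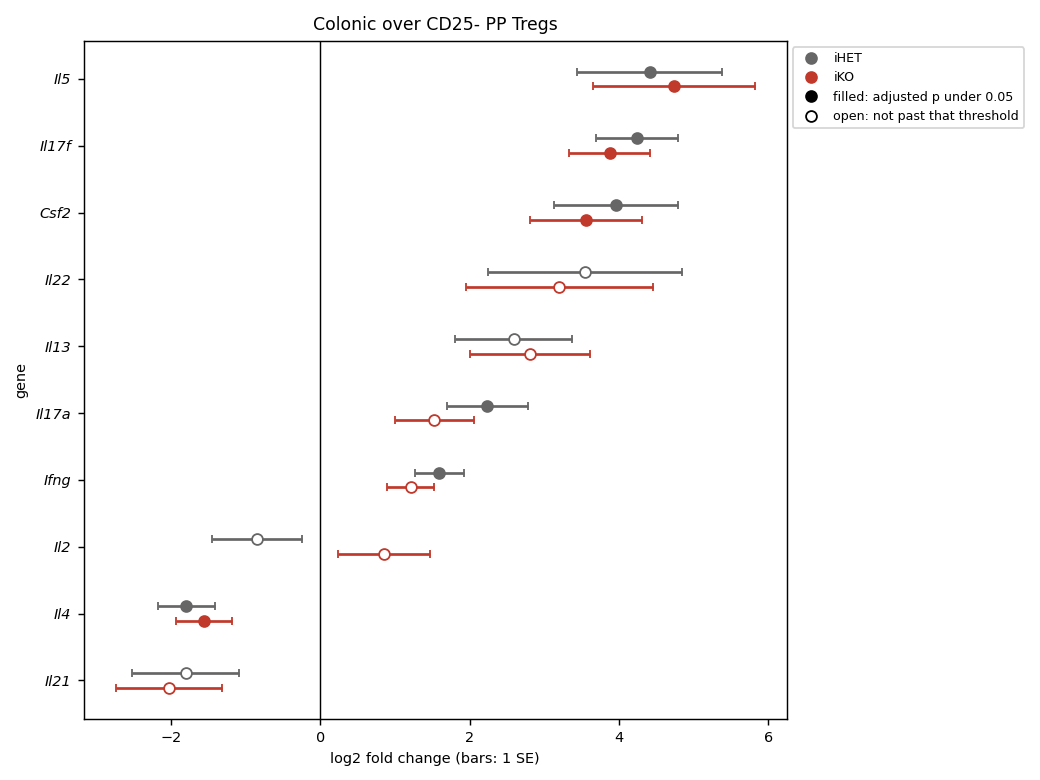
Log2 fold change of each cytokine gene in colonic over CD25- PP Tregs, with bars of 1 standard error, in iHET and in iKO Tregs, ordered by the iHET value. Filled points passed an adjusted p of 0.05. Il5 (4.41 and 4.74) and Il17f (4.24 and 3.87) are farthest to the right, the first over PP libraries of 1 to 6 counts, and Il4 (-1.80 and -1.56) and Il21 (-1.81 and -2.03) to the left.

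Several regulators of T helper programmes were higher in the colon beside these cytokines. The counts that follow stand beside 4.22% of all genes tested called higher and 2.23% lower in iHET, and 2.48% and 1.59% in iKO Tregs. Of 19 T helper lineage transcription factors, 6 were higher and none lower in colonic iHET Tregs, among them Rora (log2 fold change 2.38), which encodes a nuclear receptor of type 17 cells, Runx3 (1.47) and Irf4 (1.61). Of 20 receptors for polarising signals tested, 8 were higher and 1 lower, with the lowest p-values for Il12rb1 (2.11), shared by the receptors of IL-12 and IL-23, Il1rl1 (2.99), which encodes the IL-33 receptor ST2, Il23r (2.75) and Ifngr1 (1.49). Of the 9 follicular genes 5 were lower, with Sh2d1a (-2.11) and Sostdc1 (-5.01) first, in the direction that Il21 had. Of 16 other cytokines of CD4+ T cells tested, 4 were higher, with Il10 (1.18) and Ccl20 (2.19) first, and 2 lower, Xcl1 (-2.33) and Ccl5 (-2.36).

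In iKO Tregs, 4 of the 19 transcription factors were higher in the colon and 3 lower, 7 of the 20 receptors higher and none lower, and 7 of the 9 follicular genes lower. Rora (1.97), Il1rl1 (2.42) and Il23r (2.13) were again among those higher. In the other direction, the transcription factors Maf, Bcl6 and Nfatc1 lay lower in every colonic than in every PP library of iKO Tregs. There 43.9% of all genes tested did not overlap, in either direction. Maf, for example, was at 198 to 219 CPM in the colon and 356 to 367 CPM in PP. In iHET Tregs Bcl6 (58.2 to 87.5 against 94.9 to 218 CPM) and Nfatc1 (707 to 933 against 993 to 1020 CPM) were also lower in every colonic library, without a call. Maf overlapped there. These genes were named after their values were seen. Transcripts of mast cells, basophils and eosinophils, which also make type 2 cytokines, summed to 13.6 to 24.8 CPM in the 10 inducible libraries and to 0.692 to 1.41 CPM in the 4 libraries of the Foxp3YFPcre line, with Mcpt1 and Mcpt2 at 0 counts in all 4 of the latter. Whether these zeros come from the cells or from how the tables were made was not tested. None of the 5 such genes tested was called between the organs. Myeloid transcripts were above 0 on the log2 scale for 7 of 7 genes tested in both genotypes, with medians of 1.78 and 1.77 and 1 called higher in each (Cd14), and epithelial transcripts for 5 of 8 in iHET (median 1.03) and 8 of 8 in iKO Tregs (median 1.99), with none called. B cell and plasma cell transcripts summed to 934 to 1120 CPM in PP and to 304 to 480 CPM in the colon. That sum was mostly Ighm, at 850 to 1000 CPM in PP and 191 to 335 CPM in the colon. Of the 8 genes, 3 had a log2 fold change above 0 and 5 below in iHET Tregs, with 1 called in each direction. In iKO Tregs 2 were above 0 and 6 below, with 1 called lower. Jchain went against the sum in iHET Tregs, at 4.46 to 4.78 CPM in PP and 34.7 to 94.9 CPM in the colon. Immediate early genes, which respond to handling as well as to stimulation, were higher in the colon for 4 of 12 and lower for 1 in iHET Tregs, and for 2 and 1 in iKO Tregs. Il2ra, which encodes CD25, the marker of the PP gate, was 1.71 higher in the colon on the log2 scale in iHET and 1.63 higher in iKO Tregs. The part of these differences in the cytokine values was not tested.

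Across the 6 colonic libraries, the genes of the lists whose log2 CPM was most alike to that of each member other than Il21 were found by Pearson's r over 118 genes compared. These 6 points share the difference of genotype, and the values are a description. Because the highest of 118 values were taken over 6 points, unrelated genes can reach a high r too, and none was tested. For Il17a they were Tox2 (0.936), Il17f (0.934) and Il23r (0.909), and for Il17f they were Il17a, Tox2 and Adgre1 (0.889 for each of the last 2). For Il5 they were Il17rb (0.969), which encodes the receptor of IL-25, Nfil3 (0.959) and Crlf2 (0.912), and for Il13 they were Kit (0.939), Atf3 (0.932) and Areg (0.927). For Il22 they were Ltb (0.964), Batf (0.916) and Tnfrsf18 (0.892), for Ifng Tcrg-C2 (0.914), Lta (0.880) and Ikzf4 (0.820), and for Csf2 Tcrg-C2 (0.913), Trdc (0.888) and Cd8b1 (0.842). For Il4 they were Ifngr2 (0.932), Batf (0.913) and Tcrg-C1 (0.837), and for Il2 Il27ra (0.924), Tcrg-C1 (0.814) and Fabp2 (0.808). By rank, Spearman's rho over these pairs ran from 0.543 for Csf2 with Trdc to 1 for Ifng with Tcrg-C2. It was 0.6 for Il2 with Fabp2 and 0.714 for Csf2 with Cd8b1.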

How the data were processed

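The authors deposited 2 tables of raw counts per gene. Per the study's methods, reads were trimmed with Trim Galore, aligned with STAR to GRCm38, leaving out reads with several matches, and counted without strand with featureCounts, and the paired-end reads of the inducible line were treated as single-end. The names STAR, Trim Galore, featureCounts and mm10 are also in the submitters' processing notes. RNA was amplified with SMARTer chemistry and carries no molecular identifiers.

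The 10 cytokines, the other gene lists and the tests were chosen with earlier results of these data known. Groups came from the labels. The full surface gate of the Foxp3YFPcre Tregs and 1 gene of the lists, with the genes most alike to Il21, are not reported here. Gene IDs were matched to GRCm38 symbols without their version, for 55394 of 55487 IDs in one table and 53706 of 53801 in the other, and levels per kb used the summed exon length. The pair of tables was normalised separately with TMM.

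Tests used the quasi-likelihood test of edgeR 4.0.16 in R 4.3.3 over all genes with 1 CPM or more in 2 libraries (3 for colonic Tregs), with prior count 1 and Benjamini-Hochberg adjustment, and were tested on simulated data first. Each genotype comparison was fitted on its own libraries. The study's methods put cage in the colonic model, and the replicate number was taken as cage here, which the labels do not state. The organ comparisons and the interaction were fitted on the 10 inducible libraries together. Alternatives were DESeq2 1.42.0, other filters, other edgeR tests, the replicate block, a joint fit and leaving out each library. Named genes of other lists are those called with the lowest p, up to 4 a list, and the 3 genes most alike to each other member over the colonic libraries. No library pair agreed within sampling noise (chi-square per gene of at least 19.5).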

Additional observations from a re-analysis of the deposited data

Results flagged for a closer look

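The ratio of mean Il2 CPM between knockout and control libraries pointed in opposite directions in the PP Tregs of the 2 lines. KO over HET was 1.56 in the Foxp3YFPcre line, with 0.359 and 0.556 CPM (10 and 15 counts) in KO above 0.258 and 0.328 CPM (8 and 9 counts) in HET libraries. In the CD25- cells of the inducible line iKO over iHET was 0.654, with 0.699 and 0.583 CPM (23 and 16 counts) in iKO below 1.20 and 0.761 CPM (35 and 22 counts) in iHET libraries. The groups did not overlap in either line, as was so for 43.6% of genes tested in PP and 32.1% in CD25- PP Tregs. Il2 was under the filter in both comparisons and was not called without it (FDR = 0.839 and 0.953 in edgeR). The difference between the lines was not tested. The lines were scaled separately, and the values rest on few reads.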

How the results depend on the processing

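Number of genes called. In KO against HET PP Tregs 409 genes were called, and 401 with DESeq2's size factors, 696 with DESeq2's Wald test, 689 with edgeR's exact test, 1305 without the filter on low counts and 54 to 313 without single libraries, the lowest without the first HET library. In CD25- PP Tregs the 0 calls became 35 with DESeq2, 43 with the exact test, 232 without the filter, 1 with a minimum of 10 counts in every library, 1 in the joint fit of the 10 libraries and 0 to 128 without single libraries, the highest without the first iHET library. In colonic Tregs 1 call became 50 with DESeq2, 25 with the likelihood ratio test, 24 without the filter and 0 to 8 without single libraries. Between organs, 1201 calls in iHET Tregs became 2504 with DESeq2, 2848 without the filter and 137 to 1700 without single libraries, and 758 calls in iKO Tregs became 2233, 2348 and 74 to 1096. For the interaction, 0 calls became 2 with DESeq2 and 282 without the filter, and stayed at 0 without single libraries.

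Members called. In KO PP Tregs 2 were called, 4 without the filter and 0 to 1 without single libraries. In CD25- PP Tregs it was 0, 1 without the filter and 0 without any single library, and in colonic Tregs 0 under each alternative run. Between organs the 6 members of iHET Tregs became 3 with the minimum of 10 counts, which 6 members passed, and 0 to 7 without single libraries, and the 4 members of iKO Tregs became 9 with DESeq2, 9 without the filter, 1 with the minimum of 10 counts and 1 to 5 without single libraries. In iHET Tregs all members but Il2 were called between organs without the filter. The log2 fold change of Il13 in colonic Tregs was -0.073 without the cage term and -0.070 in the joint fit, beside 0.03. Without single libraries, that of Ifng in KO PP Tregs ran from -0.22 to 1.51. In CD25- PP Tregs Il17a ran from -1.24 to 0.80, Il17f from -1.65 to 0.20 and Il21 from -0.33 to 0.48, and in colonic Tregs Il13 ran from -0.10 to 0.27 and Il21 from -1.03 to 0.41. The causes were not tested. Of 251 other values of members, 230 kept their direction and side of the threshold, 17 passed it, 2 fell short of it and 2 turned. Of 288 values without single libraries, 236 kept both, 38 fell short of the threshold, 2 passed it and 12 turned. Where 1 PP library of a group was left, it was assumed to vary like the others.

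Replicate block. The labels do not say what the numbers share, and deviations of same-numbered libraries correlated at 0.146 in KO and HET, 0.0223 in CD25- PP and 0.134, 0.290 and -0.0173 in colonic Tregs, where the third iHET library correlated best with the first iKO library (0.140). With the replicate number as a block, 1015 genes were called in KO PP Tregs (Il4 and Il21 among them), 0 in CD25- PP Tregs, 900 between organs in iHET Tregs and 430 in iKO Tregs, and 1 gene was called in colonic Tregs without it. Csf2 between organs was the member whose call was lost with the block, in iHET and in iKO Tregs.

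Depth limits most members in PP, where Il5, Il13, Il2, Il22, Csf2 and Il17f lay under 50 counts in most libraries. With 2 or 3 libraries a group, calls moved with single libraries as given above.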

Other observations

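Il9, which encodes another cytokine of type 2 and mast cell responses, was outside the 10 genes and divided the libraries by line. It had 0 counts in all 4 libraries of the Foxp3YFPcre line and was at 5.31 to 11.9 CPM in the 10 inducible libraries. The mast cell proteases Mcpt1 and Mcpt2 also had 0 counts in each Foxp3YFPcre library and 147 to 270 counts in each inducible library. These genes lay at like levels in CD25- PP and colonic Tregs and none was called in a comparison of the inducible line. The lines differ in Cre, tamoxifen, gate and sequencing, which cannot be told apart here, and whether the exact zeros come from the cells or from how the tables were made was not tested.

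Among other cytokines of CD4+ T cells, 3 of the 14 tested were higher in KO than in HET PP Tregs and none lower, where 0.99% of the 12224 genes tested were called higher. They were Tnfsf11 (0.56 on the log2 scale), which encodes RANKL, Ebi3 (0.81), a subunit of IL-27 and IL-35, and Lta (0.74), which encodes lymphotoxin alpha. Of 9 Treg identity genes tested there, Foxp3 (0.51) and Il2ra (0.73) were higher.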
